A study of Mus musculus with 12 samples.

Results

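Gene deserts are long stretches of chromosome with no protein-coding gene, and some hold enhancers that act on a distant gene while much of their sequence is old transposon and other repeats. The regions described here are the ChIP-Seq enriched regions of FOXP3 and Ku70 that lay in such stretches of the mouse genome. A region was counted as a desert region when its summit, the base with the highest signal, lay on chromosomes 1 to 19, outside every gene of any kind in the GENCODE M21 annotation, and more than 100 kb from the nearest start of a protein-coding gene (mm10 build). The interval chr4:145000001-148000000 was left out. Of FOXP3 regions it held 49 in WT and 20 in KO cells, and of Ku70 regions 77 in Tregs and 126 in Tconv cells, and 0 of them met the distance rule. In all, 2088 of the 8771 regions on these chromosomes outside that interval were desert regions, and the whole series held 9381 regions.

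The study asked where FOXP3 sits in Tregs with and without Ku70, and where Ku70 sits in Tregs and in conventional CD4+ T cells (Tconv). FOXP3 was profiled in Tregs of Foxp3 Yfp-Cre mice (genotype label wild type, here WT) and of Foxp3 Yfp-Cre Xrcc6 fl/fl mice (label Xrcc6 knockout, here KO), in which Cre made from the Foxp3 locus deletes the Ku70 gene in cells that express Foxp3. Ku70 was profiled in CD4+CD25+YFP+ Tregs and CD4+CD25-YFP- Tconv cells of Foxp3 Yfp-Cre mice, so the controls carried the Foxp3 Yfp-Cre allele too, and no Ku70 profile of cells without Ku70 was analysed here. Each of the 4 sets had 2 biological replicates and 1 input (12 samples), with 1 list per set. The deposit attaches each list to the record of a single replicate, but the methods describe peak calling on both replicates together, and the lists were taken as pooled on that ground. The age of the sorted mice was not given in the sources used here, and region names inside the lists read iTreg, Teff and CKO where the labels read Treg, Tconv and KO.

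FOXP3 is a forkhead transcription factor that defines the Treg lineage and binds DNA at forkhead motifs, mostly at enhancers and promoters that are already open. Ku70, the product of Xrcc6, pairs with Ku80 into a ring that threads onto broken DNA ends and starts their joining, and it has little preference for sequence. A read from a repeated sequence often cannot be assigned to 1 copy of it.

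The deposited lists give 3 measures for each summit. Fold is the enrichment over the local background, −log10 p is the peak caller's p-value, and −log10 q is the same after correction over the genome. Desert regions were weak by all 3, and so were the other regions of each list. Their median fold was 1.99 for FOXP3 in WT and 2.19 in KO cells, and 2.04 for Ku70 in Tregs and 2.11 in Tconv cells, against 2.08, 2.19, 2.04 and 2.16 for regions inside genes. The authors called regions at a p-value of 0.05, and a single low −log10 p value was shared by many desert regions: 1.34 by 48.9% of those in the WT FOXP3 list, 1.40 by 59.5% in the KO FOXP3 list, 1.47 by 51.5% in the Treg Ku70 list and 1.68 by 26.6% in the Tconv Ku70 list. Inside genes the commonest value was the same in the WT FOXP3 (41.2%), KO FOXP3 (56.5%) and Treg Ku70 (48.1%) lists. For Tconv Ku70 regions inside genes it was another, 2.21, shared by 14.1%. Of the 2088 desert regions, 1 Treg Ku70 region (−log10 q of 0.02) and 1 Tconv Ku70 region (0.88) had a −log10 q above 0. Inside genes the −log10 q was above 0 in 2 of 708 WT and 3 of 246 KO FOXP3 regions, and in 8 of 2457 Treg and 4 of 881 Tconv regions of Ku70. In the WT FOXP3 list 15.2% of the desert regions reached a −log10 p of 2 (95% Wilson interval 12.2 to 18.7), against 21.7% of regions outside genes but within 100 kb of a start and 19.9% of regions inside genes. In the other lists these shares lay closer together, with 33.9% of KO FOXP3 desert regions and 38.9% (Treg) and 46.7% (Tconv) of Ku70 desert regions at that level and 34.6%, 37.1% and 48.6% of their regions inside genes. The intervals here and below cover counting error only. With 1 list per set, the spread between replicates is unknown and no test of a condition was made.

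The sequences below show what lay under some of the highest summits. For each list the region with the highest −log10 p that was at most 300 bases long is printed, with 1 region passed over for its chromosome, from the RefSeq copy of the mm10 build, forward strand, 5′ to 3′, with the 31 bases at the summit in capitals. All 4 had a summit on bases that the assembly masks as repeats. The Treg Ku70 region passed over (−log10 p 5.65) had an unmasked summit. So did the WT FOXP3 region chr16:3303020-3303394, 375 bases long and level with the printed one at 5.86.
WT FOXP3, chr19:9506052-9506191: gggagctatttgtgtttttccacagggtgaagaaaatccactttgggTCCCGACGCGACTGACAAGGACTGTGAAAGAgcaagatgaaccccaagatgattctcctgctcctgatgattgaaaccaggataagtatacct
KO FOXP3, chr1:103038403-103038547: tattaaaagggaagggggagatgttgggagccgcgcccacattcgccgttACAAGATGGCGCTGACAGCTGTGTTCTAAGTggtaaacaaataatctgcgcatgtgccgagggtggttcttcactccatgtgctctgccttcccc
Treg Ku70, chr5:16450042-16450239: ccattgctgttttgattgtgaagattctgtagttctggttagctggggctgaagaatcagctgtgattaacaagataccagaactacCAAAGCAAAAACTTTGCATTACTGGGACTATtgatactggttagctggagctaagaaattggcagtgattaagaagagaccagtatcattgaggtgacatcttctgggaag
Tconv Ku70, chr12:74804253-74804426: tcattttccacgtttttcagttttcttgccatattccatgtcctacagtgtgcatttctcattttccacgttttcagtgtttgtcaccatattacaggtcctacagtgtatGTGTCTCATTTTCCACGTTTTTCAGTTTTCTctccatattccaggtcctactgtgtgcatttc

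The 31 capital bases occurred 5 times in the genome, on either strand, for the WT FOXP3 region, 2521 times for the KO FOXP3 region, 338 times for the Treg Ku70 region and 15 times for the Tconv Ku70 region. The KO FOXP3 sequence holds GTAAACA, the forkhead core TGTTTAC read on the other strand, from its base 83 on. Values of the same regions were 4.13-fold and a −log10 p of 5.86 for WT FOXP3, 4.03-fold and 5.29 for KO FOXP3, 3.79-fold and 5.59 for Treg Ku70, and 3.58-fold and 7.09 for Tconv Ku70, the highest −log10 p of any desert region. The region on chr19 lay between Asrgl1 and Scgb2a2, the KO FOXP3 region between Cntnap5b and Cdh20, the Treg Ku70 region between Cacna2d1 and Hgf, and the Tconv Ku70 region between Gm11042 and the potassium channel gene Kcnh5. Among Treg Ku70 desert regions the highest −log10 p, 5.65, belonged to a region between Mc2r and Tcf4 (2.57-fold, summit in 13 copies), and the third highest, 5.17, to a region beside the predicted gene Gm31371 on chromosome 8 (2.44-fold, 4 copies). The third WT FOXP3 region by −log10 p (4.89) lay between the start of chromosome 13 and Gdi2 (3.57-fold, single-copy), and a Tconv Ku70 region with the next highest −log10 p (4.86) between Kcnt2 and Cdc73 (3.70-fold, 584 copies).

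A pair of further sequences is shown because these places were in more than 1 list.
Tconv Ku70, overlapping a Treg Ku70 desert region, chr6:3119018-3119165: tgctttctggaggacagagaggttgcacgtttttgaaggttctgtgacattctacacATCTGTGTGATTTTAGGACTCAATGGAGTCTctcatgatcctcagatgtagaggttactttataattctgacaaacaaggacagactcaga
WT FOXP3, overlapping a Tconv Ku70 desert region, chr3:56575486-56575665: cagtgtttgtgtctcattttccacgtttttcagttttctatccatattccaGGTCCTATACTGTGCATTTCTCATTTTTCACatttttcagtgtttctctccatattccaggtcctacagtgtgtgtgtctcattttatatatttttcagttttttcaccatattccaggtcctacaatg

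The chr3 place, between Nbea and Tm4sf1, and the strongest Tconv Ku70 region on chr12 shared a run of 32 identical bases, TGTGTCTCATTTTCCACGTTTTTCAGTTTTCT. In all, 3 desert regions held that run: the chr12 region and both regions at the chr3 place, 1 from the WT FOXP3 list and 1 from the Tconv Ku70 list. The chr6 summit of the Tconv Ku70 list occurred 4 times in the genome.

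Desert regions made up 29.3% of the WT FOXP3 list (481 of 1641, 95% Wilson interval 27.2 to 31.6), 24.5% of the KO FOXP3 list (121 of 493, 21 to 28.5), 25.4% of the Treg Ku70 list (1287 of 5072, 24.2 to 26.6) and 12.7% of the Tconv Ku70 list (199 of 1565, 11.2 to 14.5). Bases that met the same rule made up 27.8% of the assembled bases of these chromosomes, 665.0 of 2393 Mb. The WT and KO FOXP3 intervals held that value, the Treg Ku70 interval lay just below it and the Tconv Ku70 interval far below it. As a ratio to the share of bases, the lists stood at 1.05, 0.883, 0.913 and 0.458 in the same order. In counts per Mb, Treg Ku70 had 1.94 regions in deserts and 2.19 elsewhere, while Tconv Ku70 had 0.299 in deserts and 0.790 elsewhere.

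**Figure D1:**
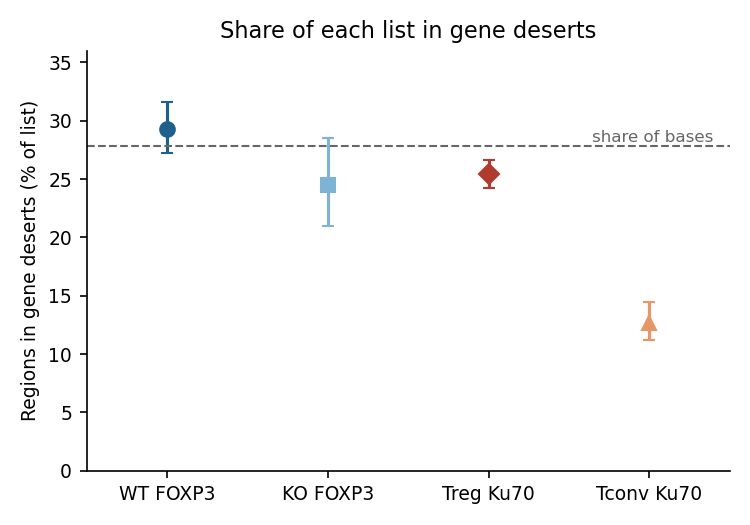
Share of the regions of each list that lay in gene deserts (percent of the list, points) with 95% Wilson intervals (bars), and the share of assembled bases in gene deserts (dashed line, 27.8%). The Tconv Ku70 list, at 12.7%, sits below the other lists, which lie between 24.5% and 29.3%.

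The share was 12.7 points higher in the Treg Ku70 list than in the Tconv Ku70 list (Newcombe 95% interval 10.6 to 14.6), and it stayed between 11.9 and 13.4 points with any 1 chromosome left out. The share was 4.77 points higher in the WT than in the KO FOXP3 list (0.238 to 9.01). That interval took in 0 when chromosome 2, 8, 10, 11, 12, 15 or 17 was left out, with differences between 3.98 and 5.96 points over all chromosomes left out in turn. Among regions with a −log10 p of at least 2 the WT list was 1.45 points lower than the KO list (difference −1.45, −9.79 to 6.34). The WT FOXP3 list was also 3.94 points above the Treg Ku70 list (1.47 to 6.48), and this difference turned to −2.75 (−7.55 to 2.61) at the same strength. With single-copy summits, those whose sequence occurs once in the genome, the WT minus KO difference was larger, at 7.88 points (2.41 to 12.8). The lists differ in size, and the depth behind them was not used here.

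The Tconv Ku70 list had a lower desert share than the Treg Ku70 list at low, middle and high GC content. GC content, taken over 100 bp on each side of the summit, had a median of 46.3% in Tconv Ku70 desert regions, 45.3% in WT FOXP3, 42.8% in KO FOXP3 and 41.8% in Treg Ku70 desert regions, and windows of that size laid every 1 kb through the deserts had a median of 39.3%. Regions of all lists together were split into 3 parts by GC, at 41.8% and 47.3%, not quite equal in size because many regions share a GC value. In the lowest part 17.0% of Tconv Ku70 regions were in deserts (12.6 to 22.4) and 31.8% of Treg Ku70 regions (29.8 to 33.8). In the middle part the shares were 16.1% and 23.0%, and in the highest 9.39% (7.58 to 11.6) and 17.7% (15.7 to 20). The WT FOXP3 shares fell in the same order, from 35.4% over 29.4% to 25%, and the KO FOXP3 shares from 30.2% over 23.7% to 17.9%.

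Over all regions, inside and outside genes, the Tconv Ku70 list thinned with distance from protein-coding starts beyond 50 kb. Its share of regions was 1.33 times the share of bases within 10 kb of a start, 1.53 times between 10 and 50 kb, 1.15 times between 50 and 100 kb, 0.693 times between 100 and 200 kb, and 0.284 times beyond 1000 kb. The Treg Ku70 list stayed between 1.02 and 1.10 up to 200 kb and fell to 0.608 beyond 1000 kb. The WT FOXP3 list started lowest, at 0.783 within 10 kb, rose to 1.11 between 100 and 200 kb and fell to 0.677 beyond 1000 kb. The KO FOXP3 values ran from 0.820 to 1.09 with wide intervals.

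**Figure D2:**
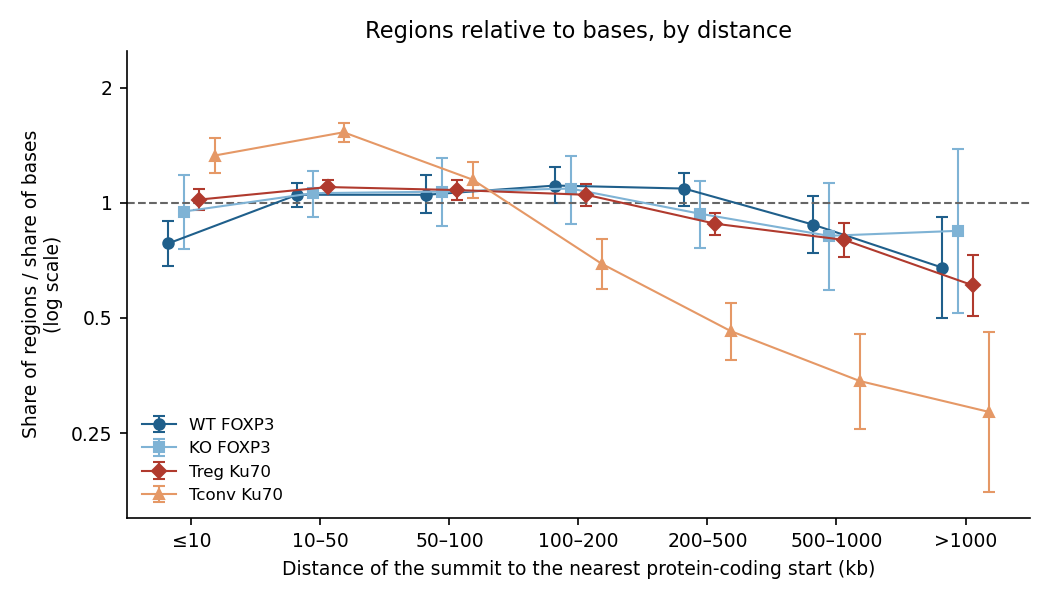
Share of all regions of each list divided by the share of assembled bases (vertical axis, log scale) by distance of the summit to the nearest protein-coding start (horizontal axis, kb), with 95% Wilson intervals divided by the same share of bases. The dashed line marks equal shares. Tconv Ku70 falls from 1.53 between 10 and 50 kb to 0.284 beyond 1000 kb, and the other lists stay between 0.608 and 1.11.

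Within the deserts too, regions were denser between 100 and 200 kb from a start than beyond 1000 kb. Treg Ku70 regions fell from 2.41 per Mb of desert between 100 and 200 kb to 1.25 per Mb beyond 1000 kb, WT FOXP3 regions from 0.872 to 0.438 and Tconv Ku70 regions from 0.428 to 0.212. The KO FOXP3 values were 0.222 and 0.159, with the lowest, 0.117, between 500 and 1000 kb. The median distance to the nearest protein-coding start was 296.0 kb in the WT FOXP3 list, 317.2 kb in the KO FOXP3 list, 307.1 kb in the Treg Ku70 list and 252.7 kb in the Tconv Ku70 list. The farthest region of all was a Treg Ku70 region at chr14:91305105-91305244 (1.85-fold), 2586 kb from the start of Pcdh9, a protocadherin gene. The farthest WT FOXP3 region was 1714 kb from Efna5, the farthest KO FOXP3 region 1751 kb from Efnb2 and the farthest Tconv Ku70 region 1983 kb from Aga. Efna5 and Efnb2 both encode ephrins, ligands bound to the cell surface that guide axons and cells. At the limit itself, the nearest regions beyond 100 kb were a WT FOXP3 region 100.6 kb from Avpr1a, a KO FOXP3 region 102.3 kb from Coch, a Treg Ku70 region 100.2 kb from Gli3 and a Tconv Ku70 region 100.7 kb from Prl2c2. The last regions left out were 99.4 kb from Slc35f4, 97.3 kb from Suclg1, 99.9 kb from Inpp4b and 99.4 kb from Dusp10. Between 100 and 110 kb there were 25, 8, 56 and 12 desert regions, and between 90 and 100 kb 26, 4, 64 and 11 regions outside genes.

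Repeats were measured in 2 ways, by whether the summit base is masked as a repeat in the assembly and by whether the 31 bases at the summit occur more than once in the genome (multi-copy). Only exact matches in the assembly counted as copies, so diverged or unassembled copies were missed. The summit was masked in 43.5% of WT FOXP3 desert regions (39.1 to 47.9), 47.1% of KO FOXP3 (38.4 to 56.0), 42% of Treg Ku70 (39.3 to 44.7) and 48.2% of Tconv Ku70 desert regions (41.4 to 55.2). Desert bases themselves were 39.1% masked and all other bases 31.3%. Against the rest of its list, the masked share was higher by 8.97 points in WT FOXP3 (3.80 to 14.2), by 8.94 points in KO FOXP3 (−1.09 to 19), by 9.14 points in Treg Ku70 (6.08 to 12.2) and by 16.7 points in Tconv Ku70 (9.40 to 24). Regions outside genes but within 100 kb of a start had masked summits in 41.8%, 53.2%, 41.5% and 39.2% of cases, nearer to the desert regions than the regions inside genes were, at 29.8%, 30.5%, 28.1% and 27.4%.

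Multi-copy summits separated the lists more. They made up 33.7% of WT FOXP3 desert regions and 32.5% of the rest of that list, a difference of 1.18 points (−3.74 to 6.25). In the Treg Ku70 list the shares were 30.5% and 25.7% (difference 4.86 points, 2.02 to 7.77), in the KO FOXP3 list 44.6% and 32.5% (12.1 points, 2.23 to 22.1) and in the Tconv Ku70 list 47.2% and 26.2% (21 points, 13.8 to 28.3). Regions outside genes but within 100 kb of a start were multi-copy in 39.6% (WT) and 43.7% (KO) of cases for FOXP3 and in 33.8% (Treg) and 34.0% (Tconv) for Ku70, and regions inside genes in 28.0%, 26.8%, 21.3% and 21.9%. Only in the Tconv Ku70 list did the interval of the desert share (40.4 to 54.2) lie above the share of the regions within 100 kb. Among desert regions with an unmasked summit, 24.3% were still multi-copy in the Tconv Ku70 list, 18.8% in the KO FOXP3 list, 9.56% in the WT FOXP3 list and 4.69% in the Treg Ku70 list. The most repeated summit sequence of a desert region occurred 32038 times. When only single-copy summits were kept, the desert share was 24.1% in the Treg Ku70 list (22.8 to 25.5) and 9.43% in the Tconv Ku70 list (7.85 to 11.3). Among the stronger regions, with a −log10 p of at least 2, multi-copy summits made up 46.6% of WT FOXP3 and 68.3% of KO FOXP3 desert regions. The Ku70 values at that level stayed inside their main intervals, at 32.7% (Treg) and 53.8% (Tconv). The rest of each list was not compared at that level. The multi-copy share of desert windows was not computed, so a desert baseline like that for masked bases is lacking. How far the inability to assign reads from repeated sequence to 1 copy set these shares was not tested.

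**Figure D3:**
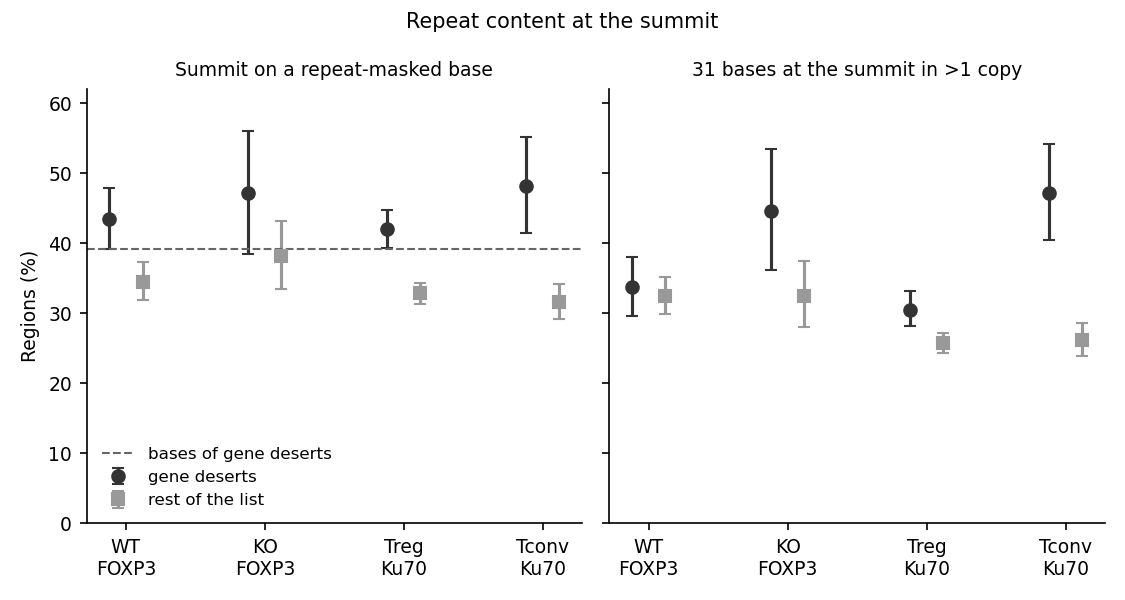
Percent of regions with a repeat-masked summit base (left) and with summit bases that occur more than once in the genome (right), for desert regions (dark circles) and the rest of each list (grey squares), with 95% Wilson intervals. The dashed line is the masked share of desert bases (39.1%). On the right, Tconv Ku70 desert regions are at 47.2% and the rest of that list at 26.2%, while the WT FOXP3 values, 33.7% and 32.5%, lie together.

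Simple tandem repeats, runs of at least 24 bases made of a unit of 1 to 6 bases, were rare. They were found in 2 FOXP3 regions from WT and 1 from KO cells, and 4 Ku70 regions from Tregs and 3 from Tconv cells. The KO FOXP3 region, chr2:57629508-57629697 between Gpd2 and Galnt5, held 51 bases built of AACCCT, the unit of mammalian telomeres, and was the second strongest desert region of its list (3.30-fold, −log10 p 4.79). Of the others, 5 were built of AC units, and 2 of the remaining 4 of AAAC.

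The forkhead core TGTTTAC, which FOXP3 and its relatives bind, was looked for on either strand up to 50 bp from each summit. It lay in 7 of 481 WT FOXP3 desert regions (1.46%, 0.707 to 2.97) and 1 of 121 in the KO list (0.826%), and for Ku70 in 12 of 1287 Treg (0.932%) and 1 of 199 Tconv desert regions (0.503%). Windows of the same length laid through the deserts held it in 1.54% of cases, and windows 1 kb upstream of the same summits in 1.87%, 0.826%, 1.24% and 1.01%. The WT FOXP3 interval held the share of desert windows, and so did those of the KO FOXP3, Treg Ku70 and Tconv Ku70 lists. Of the 7 WT FOXP3 regions with the core, the strongest was chr3:125055885-125056105 between 1700003H04Rik and Ndst4 (2.38-fold, −log10 p 2.34), and 5 of the 7 had a single-copy summit. Of the 12 Treg Ku70 regions with the core, all 12 had a single-copy summit. Runs of 3 TTTG units, which FOXP3 can also bind, lay in 0 of 481 WT FOXP3 desert regions (upper limit 0.792%) and 0 of 121 in the KO list, and for Ku70 in 0 of 1287 Treg and 2 of 199 Tconv desert regions, against 0.437% of desert windows. A match is a run of letters and not a bound site.

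The genome held 1810 gaps between neighbouring protein-coding genes with at least 1 base that met the rule, and 803 of them held a desert region. In 490 gaps the regions came from 1 list, in 222 from 2 lists, in 77 from 3 lists and in 14 from all 4. WT FOXP3 regions lay in 339 gaps and KO FOXP3 regions in 110. The 51 gaps with both were 15% of the WT and 46.4% of the KO gaps. Treg Ku70 regions lay in 631 gaps and Tconv Ku70 regions in 141. The 93 gaps with both were 14.7% of the Treg and 66.0% of the Tconv gaps. The WT FOXP3 and Treg Ku70 lists shared 224 gaps, 66.1% of the former and 35.5% of the latter. Gaps differ in how much desert they hold, from 0.133 to 2.80 Mb among the 14 with all lists. The sharing that gap size alone would give was not computed, and a shared gap does not mean that regions overlapped.

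The 14 gaps with all lists held 146 desert regions, of which 85 were multi-copy. Over all desert regions the multi-copy share ran from 30.5% (Treg Ku70) to 47.2% (Tconv Ku70) by list. These gaps, picked for holding all lists, made up 2.31% of desert bases and held 6.99% of desert regions. The densest was the stretch between the predicted genes Gm31371 and Gm15319 on chromosome 8. It held 21 desert regions in 0.133 Mb of desert (157.8 per Mb): 5 FOXP3 regions from WT and 2 from KO cells, and 6 Ku70 regions from Tregs and 8 from Tconv cells, and all 21 were multi-copy. The space between Obox7 and Obox2 on chromosome 7, members of a homeobox family expressed in oocytes, held 11, again all multi-copy, among pseudogenes of the same family. The start of chromosome 16 up to the odorant receptor gene Olfr161 held 16, of which 7 were Tconv Ku70 and 6 Treg Ku70 regions, and 11 were multi-copy. It also held the WT FOXP3 desert region chr16:3303020-3303394 (4.13-fold, −log10 p 5.86), level with the chr19 region as the strongest of its list, and the Tconv Ku70 region chr16:3287330-3287626 (3.70-fold, −log10 p 4.86), level with the one between Kcnt2 and Cdc73. The summit sequences of both occurred 2 times in the genome. The start of chromosome 5 up to Cdk6, a cell cycle kinase gene, held 5 regions, all multi-copy. The gap between Gm10800 and B230118H07Rik on chromosome 2, near the recombinase gene Rag2, held 13 regions, of which 9 were Treg Ku70 regions and 5 were multi-copy. The gap with the most regions outside these 14 lay between Gm12887 and 9530002B09Rik on chromosome 4, with 12 Treg and 4 Tconv Ku70 regions and 4 WT FOXP3 regions (20, 16 of them multi-copy).

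The first assembled Mb of the chromosomes, next to the unassembled centromere, held more desert regions than its size. It held 2.08% of WT FOXP3 desert regions (10, interval 1.13 to 3.78), 5.79% of KO FOXP3 (7, 2.83 to 11.5), 1.48% of Treg Ku70 (19, 0.947 to 2.29) and 6.03% of Tconv Ku70 (12, 3.48 to 10.2), against 0.625% of desert bases. Chromosome 16 alone gave 16 of these regions, 7 of them from the Tconv Ku70 list, and 11 of the 16 were multi-copy. On chromosome 5 all 5 were multi-copy, on chromosome 6 it was 4 of 6, and on chromosome 3 it was 1 of 5. Without chromosome 16 the desert share of the whole Tconv Ku70 list was 11.6%, and the share in the first Mb was not recomputed.

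Both gaps beside Myc were among the 14, and nearly all of their regions were single-copy. Myc, the transcription factor gene that drives cell growth, lies in a gene-poor stretch of chromosome 15. The gap between A1bg and Myc held 1 FOXP3 region from WT and 1 from KO cells, and 2 Ku70 regions from Tregs and 3 from Tconv cells, and the gap between Myc and Gsdmc on the other side held the same numbers. Of these 14 regions, 1 was multi-copy. On the A1bg side the WT FOXP3 region chr15:61408533-61409071 (2.29-fold, −log10 p 1.86) and the KO FOXP3 region chr15:61408766-61409041 (3.35-fold, 3.46) overlapped, 576.4 kb and 576.5 kb from Myc. By −log10 p only 2 desert regions of the KO FOXP3 list were stronger than this one, which was level with others, among them a region between Tle3 and Rplp1. The Treg Ku70 regions lay closer to Myc, at 192.5 kb (2.05-fold) and 204.9 kb (2.04-fold), and the nearest Tconv Ku70 region lay 462.1 kb away (2.49-fold). On the Gsdmc side the 7 regions lay between 437.7 kb and 957.0 kb from Myc, beyond the noncoding gene Pvt1, and were between 1.77-fold and 2.48-fold. The gap between Mdfic and Tfec on chromosome 6 held 9 regions, 5 of them Treg Ku70, with 1 multi-copy.

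**Figure D4:**
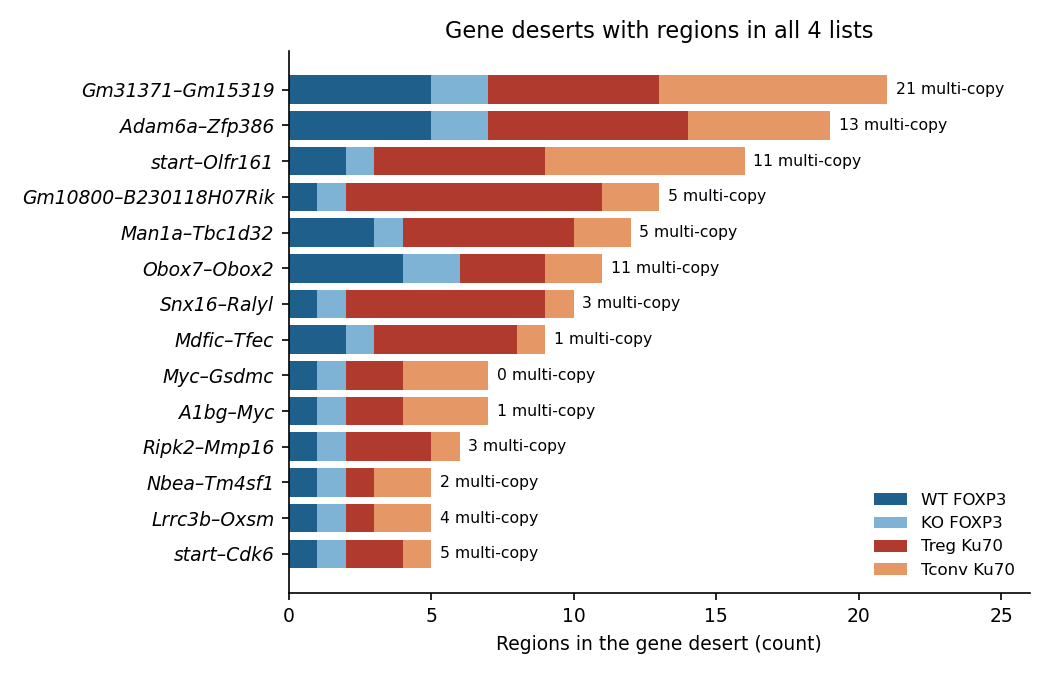
Count of desert regions (horizontal axis) in the 14 gaps between protein-coding genes that held regions of all 4 lists, stacked by list, with the number of multi-copy regions at the end of each bar. Names give the genes on either side, and start is the start of the chromosome. All 21 regions of the top gap were multi-copy, against 1 and 0 of 7 in the gaps beside Myc.

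The immunoglobulin heavy chain variable segments of chromosome 12, between Adam6a and Zfp386, formed another such gap, since these segments are annotated genes but not protein-coding ones in the sense of the rule. It held 19 desert regions, 5 FOXP3 regions from WT and 2 from KO cells, and 7 Ku70 regions from Tregs and 5 from Tconv cells, and 13 were multi-copy. Ku70 has a known role in joining immunoglobulin and T cell receptor segments, and a link between that role and these regions was not tested. The nearest gene of any kind was an antigen receptor segment for 7 FOXP3 regions from WT and 2 from KO cells, and 10 Ku70 regions from Tregs and 6 from Tconv cells, all of them immunoglobulin and none T cell receptor segments. As shares these were 1.46%, 1.65%, 0.777% and 3.02%, against 0.891% of desert windows. The strongest of them was a Tconv Ku70 region 4.85 kb from Ighv1-26 (2.83-fold, −log10 p 4.05) with a summit sequence in 11597 copies.

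The nearest gene of any kind was protein-coding for 8.11% of the WT and 6.61% of the KO FOXP3 desert regions. For Ku70 it was so for 10.9% of the Treg and 9.05% of the Tconv desert regions, against 8.10% of desert windows. Low values are set by the rule, which keeps protein-coding starts away. The nearest gene was a pseudogene for 45.7% of the WT and 52.9% of the KO FOXP3 desert regions, and for 43.4% of the Treg and 42.2% of the Tconv Ku70 desert regions, against 43.3% of desert windows. It was a long noncoding RNA for 24.1%, 21.5%, 25% and 28.1%, against 25.4% of windows. The nearest gene lay within 5 kb for 12.5% of the WT and 9.09% of the KO FOXP3 desert regions, and for 9.09% of the Treg and 16.1% of the Tconv Ku70 desert regions, against 9.14% of windows. The median distance to it was 35.4, 36.9, 38.5 and 21 kb in the same order.

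The protein-coding genes on either side of the desert regions were counted by group. A list of 107 genes known for their part in T cells and Tregs had 104 members on these chromosomes, 35 of them beside desert bases and 24 beside at least 1 desert region. The same count over all protein-coding genes beside desert bases was not made. The regions flanked by T cell genes were set against the share of desert bases instead. The T cell genes flanked 3.12% of WT FOXP3 desert regions (1.90 to 5.08), 3.31% of KO FOXP3 (1.29 to 8.19), 3.19% of Treg Ku70 (2.36 to 4.29) and 6.53% of Tconv Ku70 (3.86 to 10.9), against 2.39% of desert bases. The WT and KO FOXP3 and Treg Ku70 values lay near the share of bases, and the Tconv Ku70 value, 13 of 199 regions, lay above it. With single-copy summits alone it was 11 of 105 (10.5%, 5.95 to 17.8). Counted by the nearest start only, the T cell genes took 1.66% of the WT and 1.65% of the KO FOXP3 desert regions, and 1.55% of the Treg and 4.52% (2.40 to 8.37) of the Tconv Ku70 desert regions. The share of bases under that count was not computed.

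Distances given for T cell genes are to the flanking gene, and for many regions the start of another gene was nearer. The T cell gene with the most desert regions was Cblb, which encodes a ubiquitin ligase that restrains T cell activation. It had 9, namely 2 WT FOXP3, 4 Treg Ku70 and 3 Tconv Ku70 regions, and 4 of the 9 were multi-copy. Ets1, a lymphocyte transcription factor gene, had 8: 1 WT FOXP3, 5 Treg Ku70 and 2 Tconv Ku70 regions. The WT FOXP3 region, 1547 kb away, and the Treg Ku70 region at 1274 kb lay nearer the start of another gene (180.8 and 454.3 kb). The WT FOXP3 region was multi-copy (114 copies). Treg Ku70 regions at 199.6 kb (465 copies) and 370.2 kb (5364 copies) were multi-copy too. A pair of the Treg Ku70 regions lay just past the end of Ets1, at 0.795 kb and 1.43 kb from it, and both were 2.04-fold and single-copy. The 2 Tconv Ku70 regions were single-copy and lay 99.8 kb (2.09-fold) and 226.2 kb (1.77-fold) away. Pdcd1, which encodes the inhibitory receptor PD-1, had 1 WT FOXP3 and 5 Treg Ku70 regions, all single-copy, 136.9 to 945.3 kb away. Those at 631.6 kb and beyond lay nearer the start of another gene (315.8 to 629.5 kb). Prkcq, the kinase gene of T cell receptor signalling, had 1 WT FOXP3, 2 Treg Ku70 and 2 Tconv Ku70 regions, all single-copy, 152.4 to 508.8 kb away. Tox had 2 WT FOXP3, 1 KO FOXP3 and 3 Treg Ku70 regions, all single-copy. Gata3, the Th2 lineage factor gene, had 2 WT FOXP3 and 4 Treg Ku70 regions, 789.3 to 1961 kb away. For all but the region at 789.3 kb the start of another gene was nearer, 386.2 to 904.0 kb away. Both WT FOXP3 regions beside Gata3, at 1940 kb (2459 copies) and 1670 kb (11018 copies), were multi-copy. So was the Treg Ku70 region at 789.3 kb (2741 copies).

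Runx1, whose product partners FOXP3, had 2 Treg Ku70 and 2 Tconv Ku70 regions, all single-copy. The 2 Tconv Ku70 regions lay 412.3 kb (2.20-fold) and 419.7 kb (2.19-fold) from it, close to each other, and the Treg Ku70 regions 174.1 and 454.3 kb away (both 1.85-fold). Satb1, a chromatin organiser gene, had 2 Tconv Ku70 regions (2.58-fold and 2.12-fold) and 1 Treg Ku70 region (1.85-fold). Foxo1 had 1 WT FOXP3 region 23.0 kb away (2.44-fold, −log10 p 2.44), 1 Treg Ku70 region and 1 Tconv Ku70 region. Bach2 had 1 KO FOXP3 and 2 Treg Ku70 regions, 108.1 to 150.3 kb before it. Icos, a costimulatory receptor gene, had 1 KO FOXP3 and 3 Treg Ku70 regions, of which the Treg Ku70 region at 515.8 kb was multi-copy (9907 copies). Tgfbr2, Maf and Cxcr4 had 2 regions each, and Bcl2, Foxo3, Id2, Klrg1, Nrp1, Nt5e, Prdm1, Ptprc, Rgs1 and Rora 1 each. Of these, the Id2 (12 copies) and Rora (1224 copies) regions were multi-copy.

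**Figure D5:**
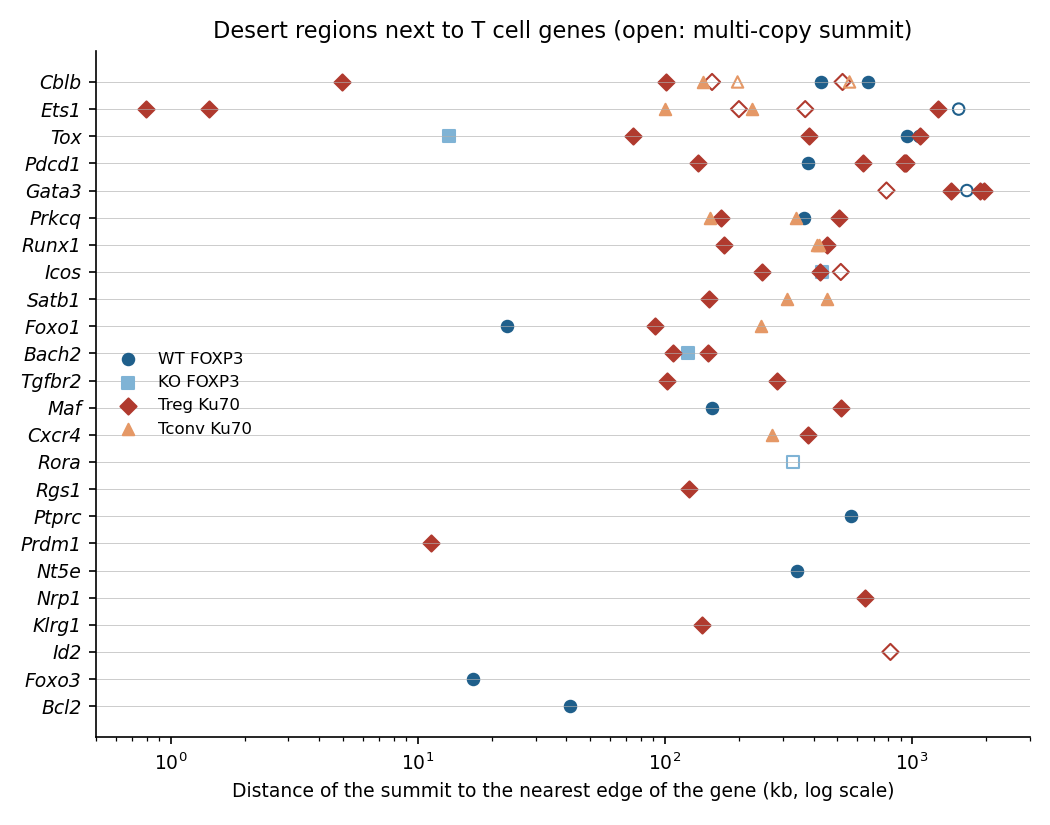
Desert regions next to the 24 T cell genes, by distance of the summit to the nearest edge of the gene (horizontal axis, kb, log scale), 1 point per region. Symbols give the list and open symbols mark multi-copy summits. The 2 Treg Ku70 regions at 0.795 kb and 1.43 kb from Ets1 are the closest, and most points lie beyond 100 kb.

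Gene families that typically border deserts were counted in the same way. Cadherins and protocadherins, adhesion molecules largely of neurons, flanked 4.57% of WT FOXP3 (3.04 to 6.83), 6.61% of KO FOXP3 (3.39 to 12.5), 6.37% of Treg Ku70 (5.16 to 7.84) and 5.53% of Tconv Ku70 desert regions (3.11 to 9.63), against 8.15% of desert bases. The WT FOXP3 and Treg Ku70 intervals lay below that share. Synaptic adhesion and axon guidance genes flanked 10.6%, 8.26%, 10.6% and 9.55%, against 13.3%, and the Treg Ku70 interval, which ended at 12.4, lay below that share. Developmental transcription factor genes flanked 4.02% to 5.20%, against 5.96%, and again the Treg Ku70 interval (4.35%, 3.37 to 5.61) lay below. For genes of ion channels and neurotransmitter receptors (3.31% to 6.22%, against 5.83%) and numbered zinc finger genes (2.25% to 4.52%, against 2.71%) the interval of each list held the share of bases. Odorant, vomeronasal and trace amine receptor genes flanked 0.624% of WT FOXP3, 0.826% of KO FOXP3 and 1.01% of Treg Ku70 desert regions but 4.02% of Tconv Ku70 desert regions (8, interval 2.05 to 7.73), against 0.557% of bases, and 7 of those 8 lay beside Olfr161 at the start of chromosome 16.

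Desert regions were rarely in more than 1 list. Of the 481 WT FOXP3 desert regions 4 overlapped a KO FOXP3 region by at least 1 bp (0.832%, 0.324 to 2.12), and 1.83% of all WT FOXP3 regions did. Seen from the other side, these were 4 of 121 KO FOXP3 desert regions (3.31%), against 5.68% of all KO FOXP3 regions. Of the 1287 Treg Ku70 desert regions 3 overlapped a Tconv Ku70 region (0.233%), against 0.710% of all, and of the 199 Tconv Ku70 desert regions 3 overlapped a Treg Ku70 region (1.51%), against 2.36%. WT FOXP3 and Treg Ku70 desert regions overlapped at 2 places, 0.416% of the WT FOXP3 desert regions against 1.40% of all and 0.155% of the Treg Ku70 desert regions against 0.434%. WT FOXP3 and Tconv Ku70 desert regions overlapped at 2 places, 0.416% of the former against 0.975% of all and 1.01% of the latter against 1.02%. KO FOXP3 and Treg Ku70 shared 1 place (0.826% against 3.04%, and 0.0777% against 0.315%), and KO FOXP3 and Tconv Ku70 shared 0 (against 1.22% and 0.511% of all regions). The counts are small: the interval of the desert share held the value for all regions in each case but that of Treg Ku70 with Tconv Ku70, where it ended at 0.683%.

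In all, 24 desert regions (8 FOXP3 regions from WT and 5 from KO cells, and 6 Ku70 regions from Tregs and 5 from Tconv cells) overlapped a region of another list, and in each case the partner was a desert region too. The strongest pair was the WT FOXP3 region at chr19:9506052-9506191 printed above (4.13-fold) with a Tconv Ku70 region of 2.42-fold, on a masked repeat. The Tconv Ku70 region at chr6:3119018-3119165 near Samd9l (3.34-fold, −log10 p 4.13) met a Treg Ku70 region of 1.85-fold. At the start of chromosome 16 a Tconv Ku70 region of 701 bp (3.06-fold, −log10 p 4.12), in 9 copies, met a Treg Ku70 region of 1.87-fold. The WT and KO FOXP3 lists met at the Myc place given above and at chr9:61707869-61708129 between Tle3 and Rplp1, where the WT region was 2.74-fold (−log10 p 3.07) and the KO region 3.35-fold (3.46), both with a single-copy unmasked summit. They also met at chr12:35799372-35799568 between Ahr, the aryl hydrocarbon receptor gene, and Agr3 (WT 2.23-fold, KO 2.62-fold, single-copy), and in the multi-copy gap beside Gm31371 (1.83-fold and 1.77-fold). At the 3 single-copy places the KO FOXP3 fold was the higher, as was the median fold of all KO FOXP3 desert regions (2.19 against 1.99), and a fold from 1 pooled list has no error. The WT FOXP3 and Treg Ku70 lists met at 2 places, both on masked repeats with 2192 or more copies: chr12:42625105-42625244 between Immp2l and Dnajb9 (2.59-fold and 2.90-fold) and chr3:55605724-55605863 between Dclk1 and Nbea (2.74-fold and 1.85-fold). With single-copy summits required, 0 WT FOXP3 desert regions overlapped a Treg Ku70 region and 3 overlapped a KO FOXP3 region. The places on chromosome 12 beside Ahr and beside Gm31371 are named after their values were seen.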

How the data were processed

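FOXP3 and Ku70 ChIP-Seq reads of 4 sets, each with 2 replicates and 1 input, were trimmed with Trim Galore, aligned to mm10 with Bowtie2 and freed of duplicates with Picard by the authors. MACS2 was run by them on both replicates together with the input as control (p-value limit 0.05, no shifting model, extension of 140 bp, also the smallest width of a region). Versions are not given in the sources used here. The deposited signal column is the fold enrichment (ratio) at the summit, and the deposited lists also hold the −log10 p and −log10 q of each summit. The lists hold no depth per sample, and the depths that the study tabulates were not used here.

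Sets follow the labels. Rows with the same coordinates were collapsed to the one with the highest fold. Genes came from GENCODE M21. Sequence, masked bases and copies came from the RefSeq GRCm38 assembly (mm10), and copies of the 31 bases at the summit were counted on both strands of its 66 primary sequences. Desert bases, and windows laid every 1 kb through them, gave the comparison. Intervals are 95% Wilson intervals, and those of differences Newcombe intervals. No test was made, since each set has 1 list. The code was tested on simulated data. The regions, gene groups and settings were chosen with earlier results of these data known. Named regions were, per list, the 3 with the highest −log10 p, the farthest from a start and the nearest to the limit; the shared regions with the highest −log10 p; 5 gaps with most regions and 5 in most lists; and T cell genes on the list. The GC split, the first Mb and the Myc, Mdfic, Obox7 and immunoglobulin gaps were chosen for description after values were seen. The work used numpy 2.4.6, scipy 1.17.1, pandas 2.3.3 and matplotlib 3.10.9 under Python 3.11.15.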

Additional observations from a re-analysis of the deposited data

How the results depend on the processing

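Of 271 values recomputed under other settings, 227 were counted as unchanged, many of them with 1 chromosome left out. Shares had to stay inside the main interval and counts within 1.5 times. Differences had only to keep their direction and still exclude 0. The Treg minus Tconv Ku70 difference was so counted at 14.7 points (single-copy summits) and 9.04 points (200 kb). Both lay outside its main interval of 10.6 to 14.6. GC medians, which had no interval, were counted as unchanged too. With a limit of 50 kb (34.3% of bases), the desert share of FOXP3 regions was 37.5% (WT) and 32.5% (KO), and that of Ku70 regions 32.9% (Treg) and 18.9% (Tconv). With 200 kb the 4 values were 19.7%, 16.4%, 16.8% and 7.80% (20.3% of bases). It was 23.4% in the WT FOXP3 list at a −log10 p of at least 2. With regions at most 50% masked it was 26.8% (WT FOXP3), 22.7% (Treg Ku70) and 10.0% (Tconv Ku70), and with single-copy summits 24.1% (Treg Ku70) and 9.43% (Tconv Ku70). With all transcript starts it was 23.9% in the Treg Ku70 list. The WT minus KO FOXP3 difference no longer excluded 0 at 200 kb (3.31 points) and with all transcript starts (4.36 points), and ranged from 3.98 to 5.96 with 1 chromosome left out. It was 7.88 points with single-copy summits and 5.63 with regions at most 50% masked. It turned to −1.45 at a −log10 p of at least 2, as did WT FOXP3 minus Treg Ku70 (−2.75); the cause was not tested. The Treg minus Tconv Ku70 difference kept its direction and excluded 0 under every setting run.

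Masked summits were 52.1% (WT FOXP3) and 58.5% (KO FOXP3) at a −log10 p of at least 2, and 44.7% (Treg Ku70) beyond 200 kb. Multi-copy summits were 42% (WT FOXP3) and 37.4% (Treg Ku70) with 21 bases, 26.8%, 24.2% and 36.2% (WT FOXP3, Treg Ku70, Tconv Ku70) with 51 bases, and 46.6% (WT FOXP3) and 68.3% (KO FOXP3) at a −log10 p of at least 2. T cell genes counted by nearest start took 1.66% (WT FOXP3) and 1.55% (Treg Ku70). The forkhead core lay within 25 bp in 0.466% (Treg Ku70) and 0% (Tconv Ku70), and within 100 bp in 2.56% (Treg Ku70). Allowing a gap of 1 kb, 5 Treg Ku70 desert regions met a Tconv Ku70 region and 6 WT FOXP3 desert regions a Treg Ku70 region. With a true overlap and single-copy summits, 0 WT FOXP3 desert regions met a Treg Ku70 region. The T cell gene count with single-copy summits was added after seeing the data.

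No paired analysis was possible because, per the study's methods, the 2 replicates of each set were pooled into 1 list before peaks were called, which also means that no replicate was left out. The deposit attaches each list to 1 replicate. Depth per sample was not used here.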
